A study of Mus musculus with 3 samples.

Results

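Connective tissue fibroblasts were looked for among single cells of the mouse pituitary intermediate lobe, the thin layer of melanotrophs and stem cells that lies between the anterior and the neural lobe. The cells were selected on transcripts they carried. A barcode, the tag of 1 droplet, was a member if it held at least 1 unique molecular identifier (UMI, a counted transcript) of 3 or more of Dcn, Lum, Col1a1, Col1a2, Col3a1, Pdgfra and Apod, and of at most 1 of C1qa, C1qb, Plvap and Cyp2f2, which mark macrophages, endothelium and stem cells. Of 9661 barcodes, 95 were members. They were 32 of 2020 in WT (1.58%, exact binomial 95% interval 1.09 to 2.23), 32 of 4153 in P27NULL (0.771%, 0.528 to 1.09) and 31 of 3488 in S2CK (0.889%, 0.605 to 1.26). All intervals given here cover counting error only.

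There was 1 droplet library for each of 3 genotypes, each made from pooled 3-month-old mice, so no difference between genotypes was tested and no p-value is given. All 3 carried Sox9iresCreERT2/+, an allele that makes a tamoxifen-inducible Cre recombinase in Sox9-expressing cells, and the methods also list a Rosa26 ReYFP reporter. WT had no other listed allele. P27NULL was Sox9iresCreERT2/+;p27-/-, which lacks the cell cycle inhibitor encoded by Cdkn1b. S2CK was Sox9iresCreERT2/+;Sox2fl/+;p27-/-, in which Cre can delete 1 copy of Sox2 in Sox9-expressing cells and their descendants. By the labels tamoxifen was given by gavage at 4 weeks, whereas the text of the paper places Cre induction for these mice at birth. The WT pool was male and the other pools held males and females, so genotype cannot be told apart from library or pool.

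Fibroblasts are the mesenchymal cells that make the collagen and proteoglycan scaffold of organs. Fibrillar collagens give the matrix its strength, small leucine-rich proteoglycans such as decorin and lumican bind the fibrils, and laminins and type IV collagen form the basement membrane on which epithelium and vessels rest. Fibroblasts also release chemokines and growth-factor-binding proteins. Around the brain and pituitary they form the meninges, whose layers carry different junction and transport proteins.

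Among members the median was 1961 UMIs in WT (lowest 515), 1964.5 in P27NULL (lowest 1038) and 2776 in S2CK (lowest 1199), against 3661.5, 2747 and 4916 in all other barcodes. Their UMIs summed to 80359, 78375 and 108325, out of library totals of 8332285 to 19239147. Barcode sequences present in more than 1 library numbered 2 to 4 for each pair of libraries, and none was a member. Cdkn1b had 4 UMIs in WT members, 0 in P27NULL and 1 in S2CK, too few to check the deletion in these cells. Sox2 had 0, 1 and 1 UMIs and Sox9 had 1, 0 and 0. Transcripts of Xist, which is made from the inactive X chromosome of females, were in 4 of 32 P27NULL and 25 of 31 S2CK members.

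Some members also carried markers of other cells, and the amounts differed between libraries. Of 7 melanocyte markers none had a UMI. The 10 macrophage markers summed to 2, 7 and 2 UMIs in WT, P27NULL and S2CK. The 12 pericyte markers summed to 29, 16 and 86 UMIs, or 361, 204 and 794 CPM (CPM being the members’ summed UMIs scaled to a common library total), against 26.3 to 35.7 in other barcodes. The 10 smooth muscle markers stood at 224, 638 and 314 CPM against 13.0 to 17.0, and the 11 Schwann cell markers at 485, 549 and 194 against 37.3 to 52.0. Mural and Schwann cell markers were thus above the level of other barcodes in every library. The 10 endothelial markers were at 137, 242 and 462 CPM against 141, 34.7 and 55.4 in other barcodes, and the 7 stem cell markers at 398, 370 and 775 against 776, 314 and 232. Pericyte, endothelial and stem cell markers were highest in S2CK, and smooth muscle markers in P27NULL. Members with 2 or more of 8 mural cell genes numbered 0, 1 and 4 in WT, P27NULL and S2CK. Without them 39 ratios of named genes between genotypes moved by less than the counting interval and 1 moved further. Beyond this and the values given below without such members, the part of these transcripts in the differences below was not tested.

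The 8 melanotroph markers summed to 2028, 1036 and 3519 UMIs, and most lay in a few members. Members with 100 or more such UMIs numbered 2 in WT, 3 in P27NULL and 5 in S2CK, and held 93.6%, 83.0% and 88.4% of them. The rest held a median of 2, 4 and 11.5. Whether those members were doublets was not tested. For shares of barcodes with a transcript, melanotrophs serve below as the comparator for free RNA. These were the 1019, 2701 and 2630 other barcodes with 3 or more of 7 melanotroph genes, with a median of 4609, 3369 and 5192 UMIs.

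Decorin, the proteoglycan that coats collagen fibrils, had the most UMIs of the 7 chosen genes. Dcn (chr10:97479500-97518163, GRCm38.p6) had 591, 591 and 861 UMIs in WT, P27NULL and S2CK and was found in 28, 31 and 31 members. Its level was 7354 CPM (exact Poisson 95% interval 6773 to 7972) in WT, 7541 (6945 to 8174) in P27NULL and 7948 (7426 to 8497) in S2CK. Over all members the highest and lowest libraries lay within 0.11 on the log2 scale, and all other barcodes held 10.4 to 15.6 CPM. A WT member held a median of 16 Dcn UMIs (0 to 61), a P27NULL member 14 (0 to 48) and an S2CK member 26 (1 to 62).

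Of 499 genes with at least 20 member UMIs in each library, 98 (19.6%) were at least 2-fold higher in members than in all other barcodes of every library. All 7 selection genes are among the 98, and the minimum was passed in the members, so the count is a description of the selection and no test. Genes the selection did not use stood high as well. Foxd1, a forkhead factor of stromal progenitors of the kidney and other organs, stood at 523 CPM in WT, 689 in P27NULL and 305 in S2CK, against 0.516 to 1.45 in other barcodes. It was detected in 18, 19 and 14 members, and in no more than 0.0981% of melanotrophs. Tcf21, a bHLH factor of fibroblast lineages, was at 324, 332 and 360 CPM. Extracellular or secreted products among these leading genes included Ogn (osteoglycin, 52, 56 and 46 UMIs), Islr (44, 49 and 44 UMIs) and Igfbp6 (149, 143 and 60 UMIs). Itih5, a hyaluronan-binding chain, had 143, 231 and 221 UMIs, and the collagen gene Col6a1 had 21, 20 and 27. Il33, an alarmin kept in the nucleus, had 34, 34 and 51 UMIs. These genes were ranked by being high in the members, so they describe the members and are no check of the label. The label was kept, although some members held many melanotroph marker UMIs, as given above. Pdgfra was also seldom counted in 1 group of members described below.

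**Figure D1:**
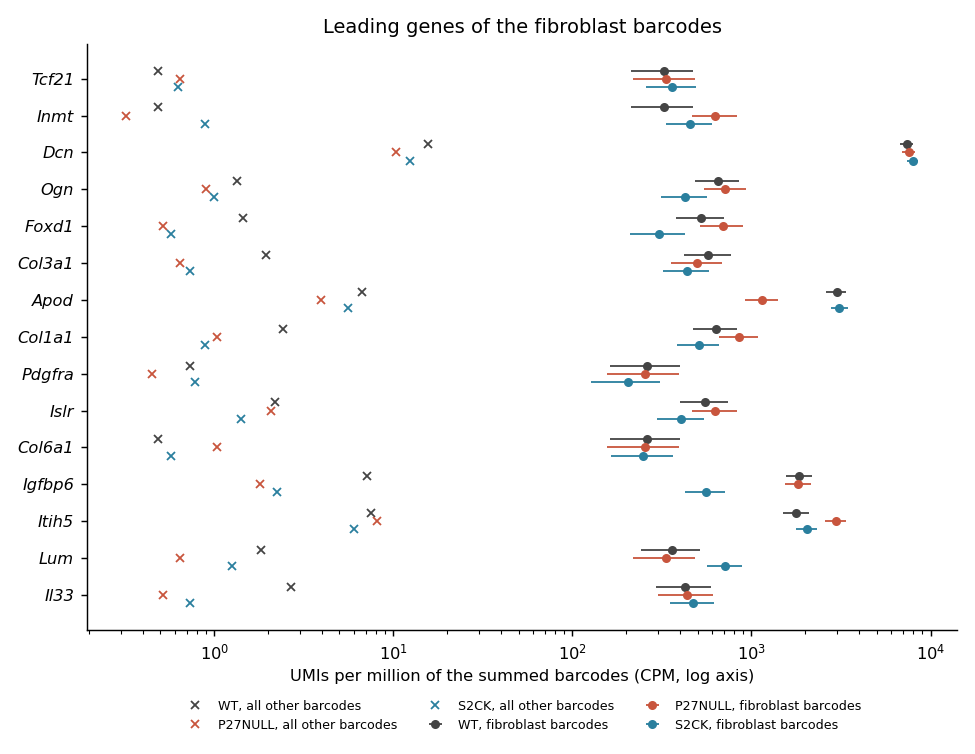
Levels of the leading genes in the members of each library (coloured points, CPM on a log axis, bars are exact Poisson 95% intervals) and in all other barcodes of the same library. Dcn stands at 7354 to 7948 CPM in members and at 10.4 to 15.6 in the rest.

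The promoters of 3 of these genes are shown because they hold a match to a common promoter motif, at any place in the window. Each is the 250 bases before the RefSeq transcription start in GRCm38.p6, plus strand, with the matched letters in capitals: CCAAT (or ATTGG) and TATAAA (or TTTATA), sought on both strands. Col1a2 and Foxd1 hold 1 CCAAT and Col3a1 holds 1 TATAAA. Among 32851 promoter windows, 33.8% held the first motif and 12.4% the second, so a match is common and is only a description.
Col1a2, chr6:4505368-4505617: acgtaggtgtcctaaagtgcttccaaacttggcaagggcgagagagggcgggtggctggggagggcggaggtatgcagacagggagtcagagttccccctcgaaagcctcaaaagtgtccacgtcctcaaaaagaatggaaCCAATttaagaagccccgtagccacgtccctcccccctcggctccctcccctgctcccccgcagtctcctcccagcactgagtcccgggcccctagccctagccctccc
Col3a1, chr1:45311288-45311537: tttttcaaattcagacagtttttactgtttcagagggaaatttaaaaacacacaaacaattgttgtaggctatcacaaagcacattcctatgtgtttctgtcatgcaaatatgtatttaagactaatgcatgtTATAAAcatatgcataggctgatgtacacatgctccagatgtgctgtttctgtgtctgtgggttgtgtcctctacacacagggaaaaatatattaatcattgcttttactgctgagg
Foxd1, chr13:98353995-98354244: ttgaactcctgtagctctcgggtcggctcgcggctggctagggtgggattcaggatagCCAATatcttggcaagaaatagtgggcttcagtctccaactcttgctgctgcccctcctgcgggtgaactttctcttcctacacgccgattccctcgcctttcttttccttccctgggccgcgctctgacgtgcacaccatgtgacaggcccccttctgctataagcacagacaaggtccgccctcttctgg

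Fibrillar collagen genes were found at a few UMIs a member, and 3 of them were among the 7 used for selection, which sets how often they were detected. Col1a1, which encodes the alpha1 chain of type I collagen, had 51, 67 and 55 UMIs, Col1a2 had 56, 73 and 49, and Col3a1 had 46, 39 and 47 in WT, P27NULL and S2CK. No member held more than 10 UMIs of any of the 3. Matrix Gla protein, an inhibitor of calcification encoded by Mgp, had more UMIs, 378, 553 and 962, or 4704, 7056 and 8881 CPM. Igfbp7, a secreted binding protein of the vessel wall and matrix, stood at 2265, 3368 and 5022 CPM in the same order. Over all members both genes were lowest in WT and highest in S2CK, while Dcn differed little. How many other genes had this order was not counted.

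Signalling genes were fewer. Of the secreted factors, the chemokine Cxcl12 had 18, 40 and 72 UMIs and the heparin-binding factor Ptn 157, 101 and 306, of which 105 in S2CK came from 1 barcode. Gas6, the ligand of TAM receptors, had 7, 40 and 25 UMIs. Pdgfra, the receptor for platelet-derived growth factor that marks fibroblasts, had 21, 20 and 22 UMIs in 10, 12 and 12 members, and Pdgfrb, more typical of mural cells, 11, 20 and 26 UMIs. Aldh1a2, which makes retinoic acid in meninges, had no more than 3 UMIs in any library, and Bmp4 no more than 6. Transcripts of these last genes were thus seldom counted.

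At the edge of the selection, 46 barcodes carried exactly 2 of the 7 genes and stayed outside, and 19 carried exactly 3 and were members. At least 2 of Foxd1, Tcf21, Ogn, Igfbp6, Islr and Mgp were found in 23 of the 46 and in 16 of the 19. All 7 genes were found in 9 members. Some barcodes just outside thus carried fibroblast transcripts too.

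The members divided by genes that were seldom found in the same barcode. On one side were 6 genes (Cldn11, a tight junction protein, Slc47a1, Abcb1a and Slc4a10, all transporters, Fxyd5 and Sfrp4). On the other were Crispld2, Mfap4, Dpep1, Hsd11b1, Tcf21 and Col15a1, which include microfibril, enzyme and collagen genes. These 12 genes were picked after their values were seen, and barcodes with at least 2 of 1 group, and more than of the other, are called the Cldn11 set (30 members) and the Mfap4 set (45 members). A single member held 2 or more of both groups. In the Cldn11 set 20 members held no gene of the Mfap4 group, and in the Mfap4 set 33 held none of the Cldn11 group. Another 20 members were in neither set, and 17 of them had no more than 1 gene in all. The median depth was 2447 and 2128 UMIs.

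**Figure D2:**
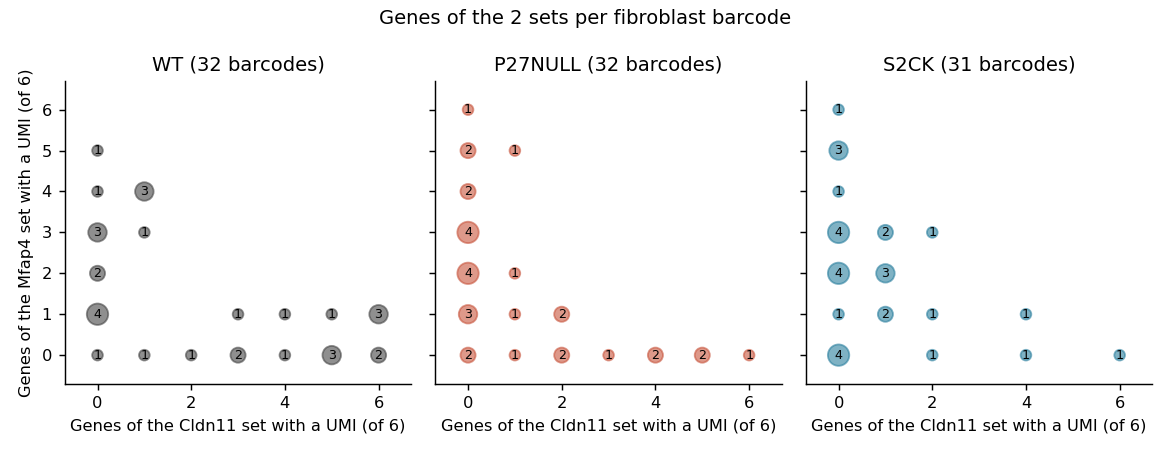
Members placed by how many of the 6 Cldn11-group genes and of the 6 Mfap4-group genes they carry, 1 panel a library, with the number of barcodes at each point. Members lie along the axes, 20 with 2 or more Cldn11-group genes and none of the other, 33 the reverse, and 1 member has 2 or more of both. The genes were picked after their values were seen, so this layout follows in part from the choice.

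Genes outside the 12 differed between the sets too. Of 2079 genes with at least 20 UMIs over all members, 9.62% were at least 2-fold higher in the Cldn11 set and 11.4% in the Mfap4 set. Because the sets were drawn from these same barcodes, no test was made.

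Among the genes higher in the Cldn11 set were Ptgds, Slc38a2 and Igfbp6. Ptgds, the lipocalin-type prostaglandin D synthase of the arachnoid (chr2:25466709-25470110), had 1152 UMIs in 15 of its 30 members against 9 UMIs in 6 of the 45 Mfap4-set members, a log2 ratio of 7.27 (6.34 to 8.41). Of the 1152, 565 and 386 lay in 2 WT barcodes, another 1085 lay in members of neither set, 940 of them in 1 WT barcode, and in S2CK the sets held 4 and 5 UMIs. Slc38a2, an amino acid transporter, had 476 UMIs in 29 members against 24 in 17 (4.58, 3.99 to 5.24). Igfbp6, which binds IGF2, had 262 against 33 UMIs (3.26, 2.74 to 3.83). 1500015O10Rik had 149 against 3 UMIs, and the retinol carrier Rbp4 had 118 against 16. The connexin genes Gjb2 and Gjb6 had 22 against 3 and 19 against 4. Fibronectin (Fn1) had 28 against 0 UMIs, at least 11.3-fold higher with the 0 placed at a floor of 3 UMIs for the whole set. Foxd1 was present on both sides, with 72 and 42 UMIs (1.05, 0.48 to 1.64). Of 11 measured genes on a list of meningeal fibroblast markers, 2 were used for the division. Of the other 9, 5 were 2-fold higher in the Cldn11 set and 3 in the Mfap4 set, with a median log2 ratio of 1.47 against 0.03 over all genes.

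Of 13 measured receptor genes 6 were 2-fold higher in the Mfap4 set and 1 in the Cldn11 set, and of 12 growth factors and cytokines 7 and 0. Pdgfra had 55 UMIs in 27 of its 45 members against 1 UMI in the Cldn11 set (log2 -5.51, -10.84 to -2.97). Fxyd6, a regulator of the sodium pump, had 74 against 1. Il33 had 100 UMIs against 11 (-2.91, -3.96 to -2.01), Cxcl12 104 against 13 and lumican 93 against 11. Chemokine Ccl2 had 30 against 0 UMIs, at least 8.27-fold higher. Of 10 measured basement membrane genes, 1 was used for the division. Of the other 9, 8 were 2-fold higher in the Mfap4 set and 1 in the Cldn11 set, with a median log2 of -2.39. Laminin Lamb1 had 36 against 0 UMIs, at least 9.92-fold higher, and Col4a1 43 against 10. Markers of other cells lay on the same side, with 2 of 2 pericyte markers, the 1 measured smooth muscle marker, 2 of 3 endothelial markers and 3 of 3 stem cell markers higher in the Mfap4 set. Members with 2 or more pericyte, smooth muscle, endothelial or stem cell markers were 20 of 45 in the Mfap4 set and 3 of 30 in the Cldn11 set. Without them the counts of those 9 basement membrane genes were again 8 and 1 (median -2.08), Lamb1 had 10 against 0 UMIs and Col4a1 19 against 7.

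Other genes were shared by the sets. All 4 measured fibrillar collagen genes stayed within 2-fold, Col3a1 at 48 UMIs in the Cldn11 set and 66 in the Mfap4 set (log2 -0.19). All 77 measured ribosomal protein genes also did. Mgp (642 and 1077 UMIs, log2 -0.47) was within 2-fold, and Dcn was just past it (461 and 1182 UMIs, -1.08).

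**Figure D3:**
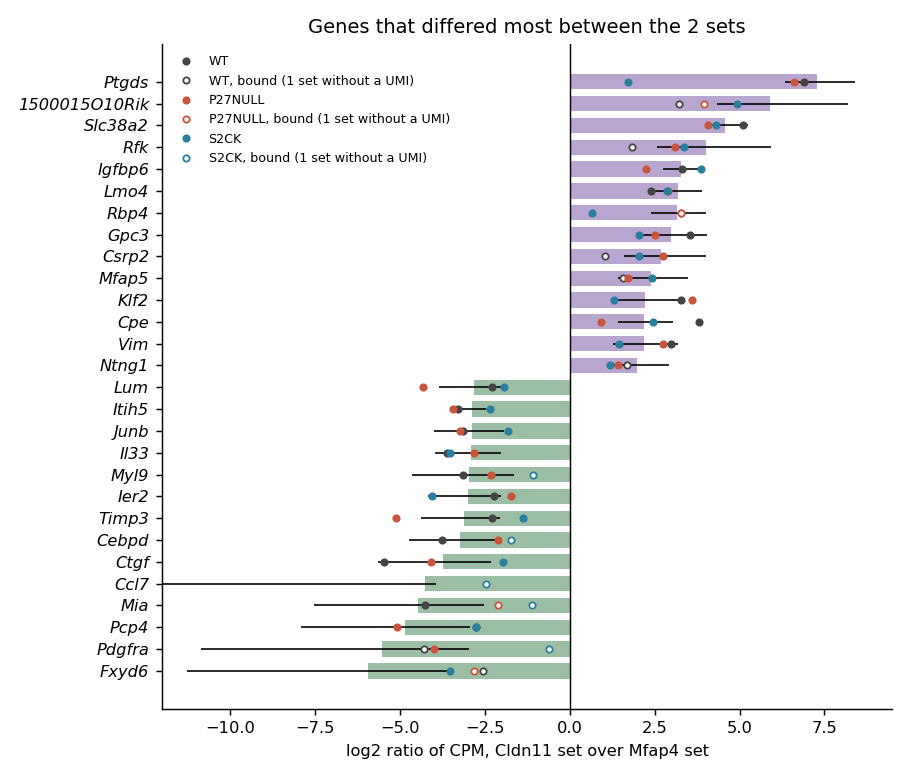
Log2 ratio of the Cldn11 set to the Mfap4 set for genes furthest to each side among those not used for the division. Bars and lines are all members with exact 95% intervals, points are single libraries, and open points are bounds where 1 set has no UMI. Ptgds lies at 7.27 and Pdgfra at -5.51.

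The mix of sets differed by library. The Cldn11 set was 15 of 32 members in WT (46.9%, 29.1 to 65.3), 10 of 32 in P27NULL (31.2%, 16.1 to 50.01) and 5 of 31 in S2CK (16.1%, 5.45 to 33.7). The Mfap4 set was 11 of 32 (34.4%, 18.6 to 53.2), 15 of 32 (46.9%, 29.1 to 65.3) and 19 of 31 (61.3%, 42.2 to 78.1). The WT and S2CK intervals overlapped for both sets. With each barcode thinned to 1000 UMIs, which left out 8 WT members, the Cldn11 set was 11 of 24, 9 of 32 and 3 of 31, and the Mfap4 set 4 of 24, 9 of 32 and 10 of 31. How much of each meningeal or stromal layer was dissected into each pool was not measured. A ratio between genotypes over all members therefore depends on the mix of sets as well as on levels within a set. Values within the Mfap4 set, the larger set in P27NULL and S2CK, are given beside many ratios below, but not beside most gene lists. Within that set the CPM of Dcn was highest in WT and lowest in S2CK. The CPM of Mgp and Igfbp7 there kept the order of all members, lowest in WT and highest in S2CK. No interval is given for either gene there, so only the order is stated for that set.

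For P27NULL against WT, 1282 genes had 20 or more member UMIs and a row in both tables. Of them 4.06% were at least 2-fold higher in P27NULL and 4.84% at least 2-fold lower, with a median log2 ratio of 0.04. Higher genes included Tagln, an actin-binding protein of contractile cells (40 against 12 UMIs, log2 1.77, 0.81 to 2.84), and Timp3, an inhibitor of matrix proteases (39 against 13, 1.62, 0.68 to 2.65). Also higher were S100a6, a calcium-binding protein (199 against 89, 2.29-fold, log2 interval 0.83 to 1.57), Cxcl12 (40 against 18, 1.19, 0.35 to 2.08) and Igfbp4 (70 against 35, 1.04, 0.43 to 1.66). Within the Mfap4 set only Timp3 (1.94) of these 5 kept an interval above 0. S100a6 was at 0.14 (-0.27 to 0.56), Cxcl12 at 0.43, Tagln at 0.60 and Igfbp4 at -0.10 there. Of the 5 other genes with the highest ratios, Cd302 was at 1.10 (0.16 to 2.15) and Rab2a at 1.38 (-0.21 to 3.39) in the Mfap4 set. Holding the set thus lowered some ratios and raised others.

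Apod and Spp1 were among the lower genes in P27NULL. Apod, apolipoprotein D, a lipid carrier abundant in meningeal and perivascular fibroblasts (chr16:31296192-31314808), had 240 UMIs in 28 WT members and 90 in 24 P27NULL members. A WT member held a median of 5 Apod UMIs (0 to 37) and a P27NULL member 2 (0 to 13), so the barcodes overlapped. The log2 ratio was -1.38 (-1.74 to -1.02), and -1.08 (-1.57 to -0.60) within the Mfap4 set. Apod was 1 of the 7 genes used for selection, and choosing members by the other 6 gave -1.52. Spp1, osteopontin, had 64 against 15 UMIs (-2.06, -2.98 to -1.23) and -2.45 (-3.82 to -1.25) in the Mfap4 set. Nbl1, a secreted BMP antagonist, had 77 against 25 (-1.59), with -3.12 in the Mfap4 set. Ctgf, a matricellular growth factor, had 77 against 18 UMIs (-2.06), but 59 of the 77 came from 1 barcode and without the top barcode of each library the ratio was -0.84. Apod, Spp1 and Nbl1 were thus lower in P27NULL in all members and in the Mfap4 set alone.

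Of the genes ranked by ratio for P27NULL against WT, Ptgds had the largest, and its counts were uneven. It had 2138 UMIs in WT, 98 in P27NULL and 10 in S2CK, a log2 ratio of -4.41 for P27NULL against WT (-4.72 to -4.12), and -7.45 without the top barcode of each library. The top 3 WT barcodes held 940, 565 and 386 UMIs, 88.4% of the total, and 1 P27NULL barcode held 91 of 98. After thinning, Ptgds was found in 54.2% of WT members against 18.1% of WT melanotrophs, in 3.12% against 19.1% in P27NULL and in 9.68% against 11.3% in S2CK. The shares in P27NULL and S2CK members were at or below the melanotroph share, which is read as background. Only in the WT library was the member share above it. For S2CK against P27NULL the ratio was -3.76, -0.69 without the top barcode of each library, 0.0045 with members chosen by 4 of the 7 genes, and 1.16 in the Mfap4 set (5 against 1 UMIs).

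**Figure D4:**
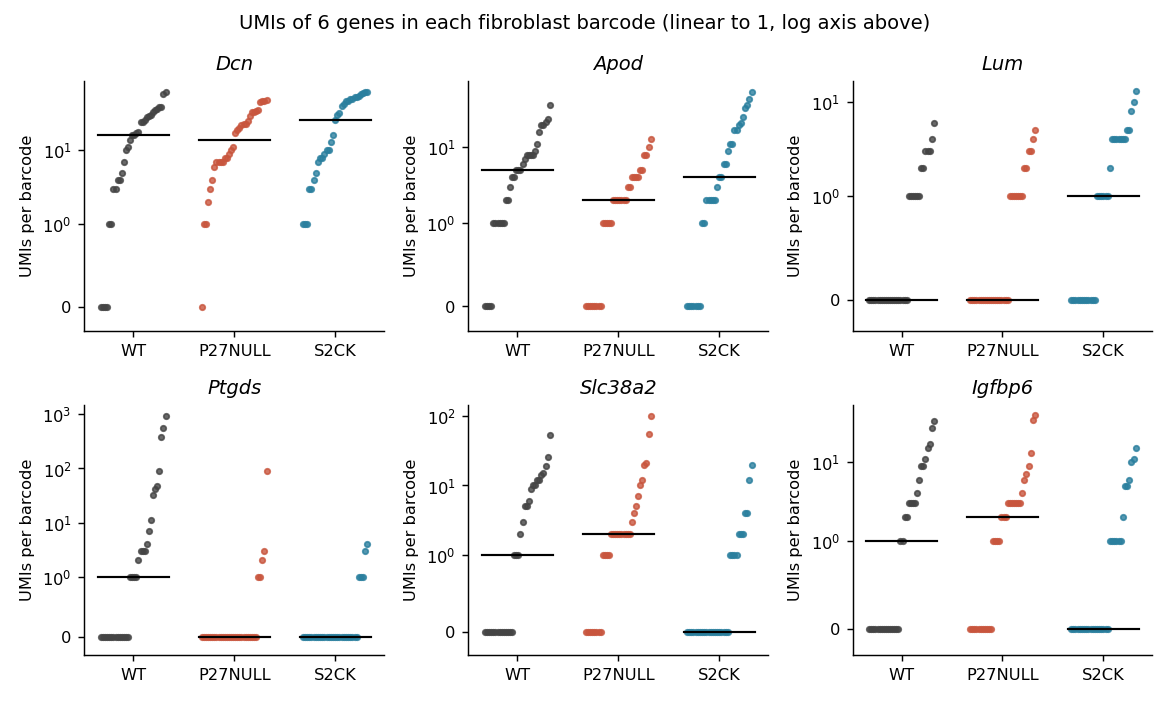
UMIs of 6 genes in each member (linear to 1 UMI, log axis above), 1 point a barcode in order of its count, by library, with a line at the median. Apod is spread over 24 to 28 members of each library, whereas Ptgds in WT rests on barcodes with 940, 565 and 386 UMIs.

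For S2CK against P27NULL, which differ by the Sox2fl allele on a p27-/- background, 1429 genes were compared. Of them 7.84% were at least 2-fold higher in S2CK and 10.0% at least 2-fold lower, with a median of -0.07. Apod was 335 UMIs in S2CK against 90 in P27NULL (log2 1.43, 1.09 to 1.78) and 0.83 (0.44 to 1.23) within the Mfap4 set, which is below 2-fold. Its level was 2987 CPM in WT, 1148 in P27NULL and 3093 in S2CK, and S2CK against WT was 0.05 (-0.19 to 0.30). Spp1 had 96 against 15 UMIs (2.21, 1.42 to 3.10; Mfap4 set 2.16, 1.11 to 3.42), with S2CK against WT at 0.15. Both genes were therefore lowest in the P27NULL library, and the intervals of S2CK against WT included 0. Both comparisons use the same P27NULL library.

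Metallothionein, immediate early and interferon-stimulated genes were among the others that were higher in S2CK. Metallothionein Mt2 had 47 against 6 UMIs (5.67-fold, log2 interval 1.27 to 4.02), and Mt1 211 against 58 (log2 1.40). After thinning to 1000 UMIs Mt2 turned to -1.07. The immediate early genes Fos (72 against 16, 1.70) and Ier2 (93 against 22, 1.61) were also higher, with 27 of the Fos and 49 of the Ier2 UMIs in 1 barcode. Melanotroph markers summed were also higher in S2CK members (log2 1.30), and without members that had 3 or more Pcsk2 UMIs Fos was at 2.93 and Ier2 at 2.51. Those ratios rested mainly on 2 S2CK barcodes without a Pcsk2 UMI, which held 27 and 14 Fos and 49 and 14 Ier2 UMIs. Without the deepest barcode of each library Fos was at 0.91 and Ier2 at 0.56. The chemokine Ccl7 had 69 against 1 UMIs, but 45 and 23 of the 69 came from 2 of 3 barcodes. Bst2, an antiviral membrane protein, had 58 against 16 (1.39, 0.57 to 2.29), with 26 of the 58 in 1 barcode and a ratio of 0.90 without the top barcodes. H2-K1, an MHC class I chain, had 66 against 20 (1.26). Rbm3, a cold-inducible RNA-binding protein, was spread over 20 S2CK and 6 P27NULL members with at most 4 UMIs in each (42 against 11, 1.47). Within a sex, where P27NULL had only 4 female barcodes, the ratio was -0.14. Fos was found in 6 members of each of these libraries and Ier2 in 9 and 10, while Bst2 was found in 17 and 13.

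Several of the genes that were lowest in S2CK were high in the Cldn11 set. Slc38a2 had 50 against 263 UMIs (log2 -2.86, -3.33 to -2.42) and Igfbp6 60 against 143 (-1.72, -2.18 to -1.28), both high in the Cldn11 set. Within the Mfap4 set they were at -1.97 (8 against 14 UMIs) and -1.58 (12 against 16), and after thinning to 1000 UMIs Igfbp6 turned to 0.22. Cpxm1, a secreted member of the metallocarboxypeptidase family, had 19 against 63 UMIs (-2.20, -3.02 to -1.44) and -1.48 (-2.53 to -0.46) in the Mfap4 set. Gpc3, a glypican that binds growth factors at the cell surface, had 17 against 53 (-2.11, -2.99 to -1.30). Its Mfap4-set value of -1.75 rested on 4 against 6 UMIs. Cldn11 (16 against 39, -1.75) and Plpp3, a lipid phosphatase (49 against 104, -1.55), were lower over all members, but in the Mfap4 set Plpp3 was at -0.34 (-1.25 to 0.61). Cpxm1, Slc38a2 and Igfbp6 thus kept intervals below 0 in that set and Plpp3 did not.

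Foxd1 had 33 UMIs in S2CK against 54 in P27NULL (log2 -1.18, -1.85 to -0.53) and 42 in WT (S2CK against WT -0.78, -1.48 to -0.09). Within the Mfap4 set S2CK against P27NULL was -0.42 (-1.53 to 0.74). Tcf21 differed little, at 0.12 (-0.63 to 0.89) and 0.15 for the same pairs. Lumican, 1 of the selection genes, had 77 UMIs in S2CK against 26 in P27NULL (1.10, 0.44 to 1.80) and 29 in WT, and 1.18 with members chosen without it. Within the Mfap4 set it was at 0.49 (-0.25 to 1.30). For S2CK against P27NULL neither Foxd1 nor Lum thus passed 2-fold within that set. For S2CK against WT Foxd1 was there at -1.03 (20 against 10 UMIs, -2.19 to 0.23) and Lum at 0.62 (-0.35 to 1.75).

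**Figure D5:**
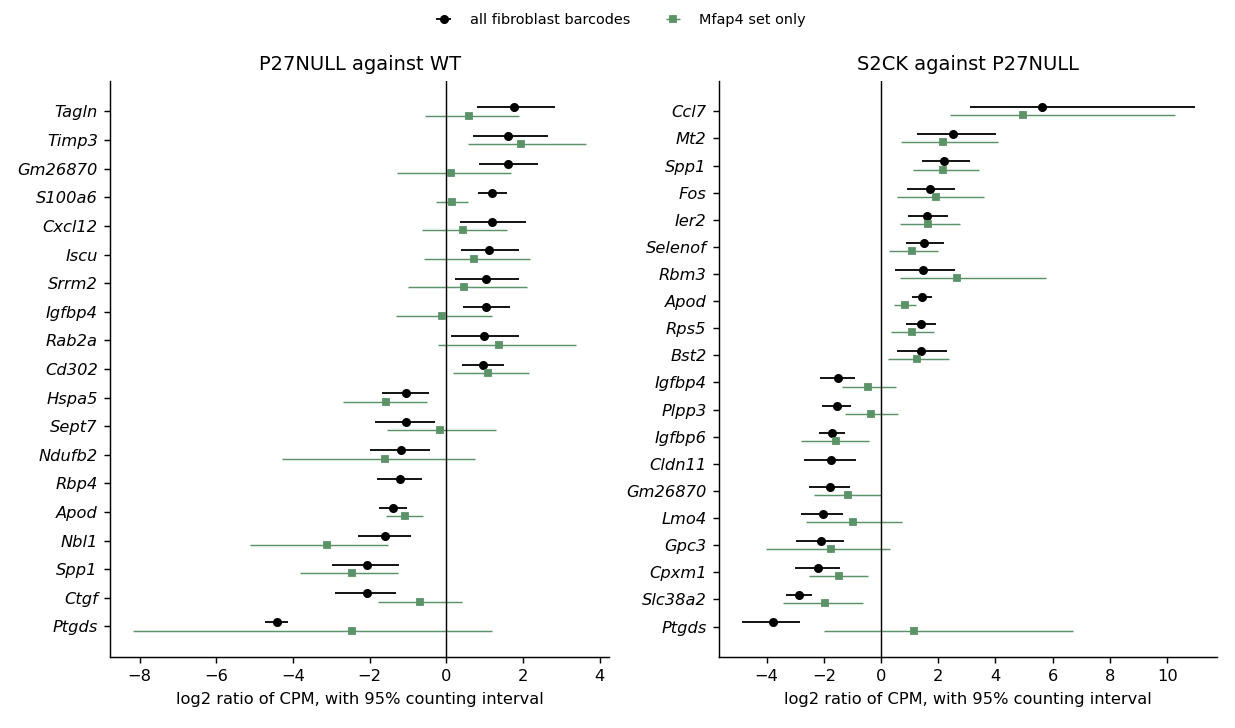
Log2 ratios between genotypes for genes with the highest and lowest ratios of each contrast, over all members and within the Mfap4 set, with exact 95% intervals. Apod and Spp1 lie below 0 for P27NULL against WT and above 0 for S2CK against P27NULL in both, while S100a6 is 2.29-fold higher over all members and at a log2 of 0.14 within the Mfap4 set.

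Gene groups were described by how many measured members passed 2-fold. For P27NULL against WT, 0 of 8 meningeal fibroblast markers were higher and 3 lower (Ptgds, Gjb2 and Slc47a1), all 8 were below 0, and the median was -0.52. The lists of proteases and inhibitors (2 higher and 0 lower of 10, Timp3 and Serpinf1) and of growth factors and cytokines (2 and 0 of 5, Gas6 and Cxcl12) had genes past 2-fold on the higher side only. Fibrillar collagens (3 measured), basement membrane genes (4), proteoglycans (6) and receptors (9) had none past 2-fold in either direction. Of 12 mesenchymal transcription factors Nr2f1 was higher (20 against 2 UMIs) and Foxp1 lower. Among all 1282 genes compared 4.06% were higher and 4.84% lower, and the median was 0.04.

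For S2CK against P27NULL the 3 measured fibrillar collagens were all below 0 and 1, Col1a2, was past 2-fold (49 against 73 UMIs, log2 -1.04, -1.59 to -0.50). All 3 were used for selection. Summed, the list of 10 was at -0.72 (-1.02 to -0.42). With members chosen by 2 of the other 4 genes the 3 collagens summed to -0.73 (-1.07 to -0.40), and within the Mfap4 set to -0.97 (-1.36 to -0.57). Of 10 immediate early genes 3 were higher (Fos, Ier2 and Jun) and 0 lower, 9 were above 0 and the median was 0.76. Of 9 interferon-stimulated genes 2 were higher (Bst2 and H2-K1), 1 was lower (Ifi27l2a) and 8 were above 0. Of 12 transcription factors 0 were higher and 2 lower (Foxd1 and Nfix), and 9 were below 0. The IGF list, binding proteins and ligands, had 0 higher and 2 lower of 5 (Igfbp6 and Igfbp4). Growth factors and cytokines were mixed, with 3 of 8 higher (Ccl7, Ccl2 and Ptn) and 2 lower (Mdk and Gas6). For Ccl7, 45 of the 69 S2CK UMIs lay in 1 barcode, and for Ptn 1 barcode also held a large part, as given above. Of 76 ribosomal protein genes 4 were higher and 0 lower and 63 were above 0, with a median of 0.34. Among all 1429 genes compared 7.84% were higher and 10.0% lower.

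For S2CK against WT 7.54% of 1459 genes were at least 2-fold higher and 9.25% at least 2-fold lower, with a median of -0.06. Of 11 immediate early genes 7 were higher and 2 lower, with a median of 1.11. Growth factors and cytokines had 4 higher and 0 lower of 7, with a median of 1.41. With 2 UMIs asked of each selection gene the first median turned to -0.11, and after thinning the second turned to -0.08. Between the sets, 8 of 12 measured immediate early genes and 7 of 12 growth factors and cytokines were 2-fold higher in the Mfap4 set. That set had a larger share of members in S2CK than in WT, and its part in these medians was not tested. Over all members Igfbp7 was at 1.15 (0.90 to 1.40), Mgp at 0.92 (0.74 to 1.09) and Igfbp5 at -1.04 (-1.39 to -0.70). Ratios of these genes within the Mfap4 set are not given. The binding proteins Igfbp7 and Igfbp5 therefore did not move in 1 direction. All S2CK contrasts set a library with 25 of 31 Xist-positive members beside libraries with 4 of 32 or an all-male pool, so sex and genotype cannot be told apart here.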

How the data were processed

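The deposited values are raw UMI counts per gene and barcode, made by the authors from 10x Chromium 3' libraries of papain-dissociated intermediate lobes with Cell Ranger 3.0.2 and STAR 2.5.1b on mm10 (submitters' processing notes, which also name R 3.6.0 and Seurat 3). By the methods, the authors had removed barcodes with few genes or many mitochondrial reads. No doublet caller was run. The excluding genes removed 4, 5 and 3 barcodes in WT, P27NULL and S2CK.

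Counts were summed over members of each library and given as CPM with exact Poisson 95% intervals, and ratios as log2 of CPM with exact conditional intervals. A sum of 0 was placed at 3 counts. Genes needed 20 UMIs over both groups for a ratio. Named genes were the 15 that led the members over other barcodes, the 10 largest ratios each way with 50 or more UMIs and a level at least that of other barcodes, and members of lists; 2 of these genes are not reported here. Members and lists were chosen with earlier results of these data known. Thinning drew 1000 UMIs a barcode (seed 1). Gene positions and promoters came from RefSeq GRCm38.p6. Scaling alternatives used edgeR 4.0.16 TMM and DESeq2 1.42.0 size factors as divisors only, with no count model, since there is 1 library a genotype. Python 3.11.15, numpy 2.4.6, scipy 1.17.1, pandas 2.3.3, matplotlib 3.10.9 and R 4.3.3 were used. The ratio code was tested on simulated data.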

Additional observations from a re-analysis of the deposited data

How the results depend on the processing

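No paired analysis was possible because each genotype had 1 library, and for the same reason no replicate could be left out. Choosing members by 2 UMIs per gene gave shares of 0.99% in WT and 0.385% in P27NULL, and thinning gave 0.969% and 0.506%. The median of the immediate early genes for S2CK against WT turned to -0.113 with 2 UMIs per gene. For S2CK against P27NULL, Ptgds turned to 0.00453 with 4 of the 7 genes and to 1.16 in the Mfap4 set (5 against 1 UMIs), Rbm3 to -0.145 within a sex, and Mt2 to -1.07 and Igfbp6 to 0.222 after thinning. The growth factor median for S2CK against WT turned to -0.0845 after thinning, and Igfbp4 for P27NULL against WT to -0.104 in the Mfap4 set. The cause was not tested. Genes past 2-fold were 30.3%, 34.0% and 34.0% for P27NULL against WT, S2CK against P27NULL and S2CK against WT with no minimum of UMIs, against 8.89%, 17.8% and 16.8%; the first was 4.70% at 50 UMIs or more, and the second 27.8% within a sex, where P27NULL had 4 female barcodes. Thinning put the Mfap4 set at 16.7%, 28.1% and 32.3%. Of the alternatives tried, 939 list medians, 648 named-gene ratios and 23 shares moved by less than the counting interval. Another 26 list medians, 65 named-gene ratios and 4 shares moved further, and 2 list medians and 6 named-gene ratios changed sign. With only the Mfap4 set, 14 named-gene ratios moved further and 2 changed sign. Apod for P27NULL against WT ranged from -1.65 to -1.08, and for S2CK against P27NULL Cpxm1 ranged from -2.87 to -1.48. The alternatives on the Mfap4 set, Pcsk2, Apod, Lum or the collagens in the selection, genes used for the division, members with markers of other cells between the sets, the deepest barcode and the top barcode of a gene were chosen after seeing the data.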
